A study of Caenorhabditis elegans with 2 samples.

Results

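The arms of chromosome IV of Caenorhabditis elegans were described through the 3′ untranslated regions (3′ UTRs) cloned from them. The members were all intervals of the deposited list on chromosome IV that started below 4 Mb (left arm) or at 13 Mb and above (right arm), in the file's own numbering. There were 266 of them, 162 in the left and 104 in the right arm, of 788 on the chromosome and 4818 in the list. The last interval inside the left border lay at IV, 3996235 to 3996339 and the next one outside at IV, 4015067 to 4015311. At the other border the last one outside lay at IV, 12967207 to 12967350 and the first inside at IV, 13033852 to 13034055.

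The clones came from total RNA of N2 worms, the wild-type laboratory strain, grown as a mixture of stages on plates of the bacterium OP50. Each 3′ UTR was amplified between an oligo-dT primer and a forward primer for its transcript, cloned in 6432 minipools and read by massively parallel pyrosequencing, in a search for the forms of worm 3′ UTRs. The interval list is attached to the minipool run and is treated as 1 library. The labels describe a further run of 49152 barcoded amplicons and 5952 minipools, which was not analysed here as a list of its own. Whether reads of that run entered the list is not known here. The list gives positions and no reads, so the depth is unknown, no value has a replicate error and no comparison below was tested. Brackets after shares hold exact Clopper-Pearson 95% intervals, and those after medians hold exact binomial order-statistic 95% intervals. They express counting error alone.

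The 3′ UTR follows the stop codon of a messenger RNA and carries the sites through which proteins and small RNAs control stability, translation and localization of the message. The arms of worm autosomes recombine more often than the centres and are richer in repeats and in fast-changing gene families, such as chemoreceptors, C-type lectins and F-box genes. The centres hold more of the conserved and essential genes. Chromosome IV also carries most genes of the worm's piRNAs, small RNAs that are bound by the Argonaute protein PRG-1 and silence foreign sequences in the germline.

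The file's numbering had to be set against the annotation (Ensembl release 115, assembly WBcel235) before genes could be named. The 5′ edge of an interval is fixed by the forward primer and should lie at the same distance before the stop codon on both strands. The left arm needed almost no correction. There the median 5′ edge, in the file's numbering, lay 34 nt upstream of the stop codon's last base on plus-strand genes and 28 nt upstream on minus-strand genes. For the right arm the corresponding medians were 67 nt and −7 nt, the negative value lying past the stop codon. The offset, taken per 1 Mb window as the difference of such strand medians divided by 2, was 0 to 4 nt in the windows of the left arm and 34 to 44 nt in those of the right arm. In the last 3 windows of the chromosome it rested on 3 to 6 intervals per strand. Genes were named after each interval had been moved by the offset of its window, and coordinates are printed unmoved, in the file's numbering, with no build named in the labels.

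**Figure D1:**
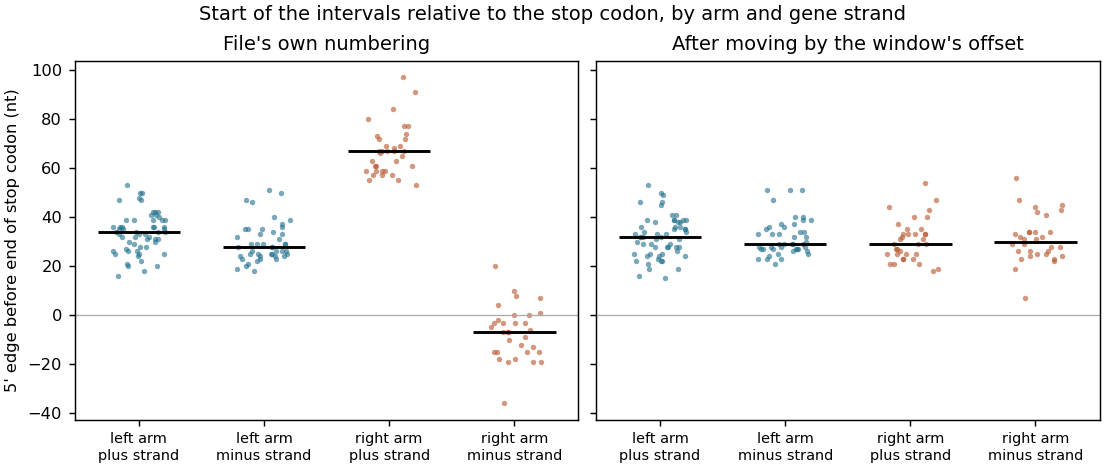
Distance (nt) from the 5′ edge of each interval to the end of the stop codon, for intervals named by a nearby stop codon, by arm and gene strand, in the file's own numbering (left panel) and after the move (right panel). Points are intervals and bars are medians. In the right arm the strands stand apart, with medians of 67 and −7 nt. After the move they lie at 29 and 30 nt, which follows from the method, as the offset was set from such medians.

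The 3′ edges were not used to find the offset. After the move, the median distance from the 3′ edge to the nearest annotated transcript end was 0 nt on the 58 plus-strand and −1 nt on the 45 minus-strand intervals of the left arm. It was 1 nt on both the 35 plus-strand and the 32 minus-strand intervals of the right arm. Ends on both strands thus met annotated ends at about the same place.

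Most intervals of both arms lay at the 3′ end of a protein-coding gene. On the left 122 of 162 intervals (75.3%, 67.9 to 81.7) were given to 1 gene and named 118 genes, with 66 on the plus and 56 on the minus strand. On the right 84 of 104 (80.8%, 71.9 to 87.8) were given to 1 gene and named 83 genes, with 45 on the plus and 39 on the minus strand. The same share in the centre of the chromosome was 75.1% (71.2 to 78.8), 392 of 522. The remaining intervals of the left arm were 26 over coding exons, 13 elsewhere and 1 over the 3′ ends of 2 genes. Those of the right arm were 13, 6 and 1.

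The 5′ edge mostly lay just before the stop codon. On the left 103 of the 122 named intervals (84.4%, 76.8 to 90.4) began at most 60 nt before its end, with a median of 31 nt (29 to 33). On the right 67 of 84 (79.8%, 69.6 to 87.7) did, with a median of 29 nt (27 to 33). These shares and medians follow in part from the method. A start in that range was itself a way to give a gene, and the offset was set from distances to stop codons. Of the 19 other named intervals of the left arm, 11 began farther upstream and 8 began past the stop codon. Of the 17 in the right arm, 15 began farther upstream and 2 past it. These were dnbp-1 and eef-1B.2, a translation elongation factor subunit gene, at stop codon distances of −60 and −48 nt.

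Fewer genes of the right arm than of the left had a 3′ interval. On the left 118 of 634 annotated protein-coding genes had one (18.6%, 15.7 to 21.9), close to the 387 of 2002 in the centre (19.3%, 17.6 to 21.1). On the right it was 83 of 645 (12.9%, 10.4 to 15.7), an interval that barely meets that of the left arm and lies below that of the centre. Genes with a letter-number symbol, given mostly to genes with a known phenotype or relative, had one more often than the rest, which had only a sequence name or a name of another form. The shares were 21.7% (17.4 to 26.5) against 15.1% (11.2 to 19.7) on the left and 17.6% (13.6 to 22.2) against 8.10% (5.36 to 11.6) on the right. The arms also hold fewer genes per length, 158.5 per Mb on the left and 143.5 on the right, against 222.4 in the centre. Counting every interval, those over coding exons included, there were 40.5 per Mb in the left arm, 23.14 in the right arm and 58.0 in the centre. The list of genes that received a forward primer was not used here, so a share reflects both which genes were targeted and which were recovered.

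The lower share of the right arm lay away from its border with the centre. In the first 0.5 Mb past the border 30 of 113 genes had a 3′ interval (26.5%, 18.7 to 35.7). Over the following 3.5 Mb, from 13.5 to 17 Mb, it was 42 of 423 (9.93%, 7.25 to 13.2), and past 17 Mb 11 of 109 (10.1%, 5.15 to 17.3). Between 15.5 and 17 Mb only 6 of 147 genes had one (4.08%, 1.51 to 8.67). In the 0.5 Mb from 15.5 to 16 Mb it was 0 of 45 genes, which allows a share of up to 7.87%. The bins were fixed at 0.5 Mb, but these stretches were joined after their values had been seen.

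The stretch is rich in piRNA genes. The annotation places 11574 piRNA loci in the right arm, 20 in the left arm and 3120 in the centre. Of the 11574, 11061 lie between 13.5 and 17 Mb and 11 in the first 0.5 Mb past the border. The stretch from 13.5 to 17 Mb also holds 120 pseudogenes and 41 of the 44 chemoreceptor genes of the right arm, and 72.1% of its protein-coding genes have an annotated 3′ UTR, against 91.2% in the first 0.5 Mb. Among genes with an annotated 3′ UTR only, 42 of 305 in the stretch had an interval (13.8%, 10.1 to 18.2), and 29 of 103 in the first 0.5 Mb (28.2%, 19.7 to 37.9). The centre has a piRNA-rich part of its own, with fewer loci per 0.5 Mb than the 1116 to 1915 between 13.5 and 17 Mb. From 4.5 to 5 Mb, with 268 loci, 11 of 111 genes had an interval (9.91%), and from 5 to 5.5 Mb, with 660 loci, 14 of 121 (11.6%). From 5.5 to 6 Mb, with 978 loci, 14 of 66 had one (21.2%). From 6 to 6.5 Mb, with 683 loci, it was 16 of 91 (17.6%), and from 6.5 to 7 Mb, with 227 loci, 18 of 91 (19.8%). The part of these features in the lower share of the right arm was not tested.

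**Figure D2:**
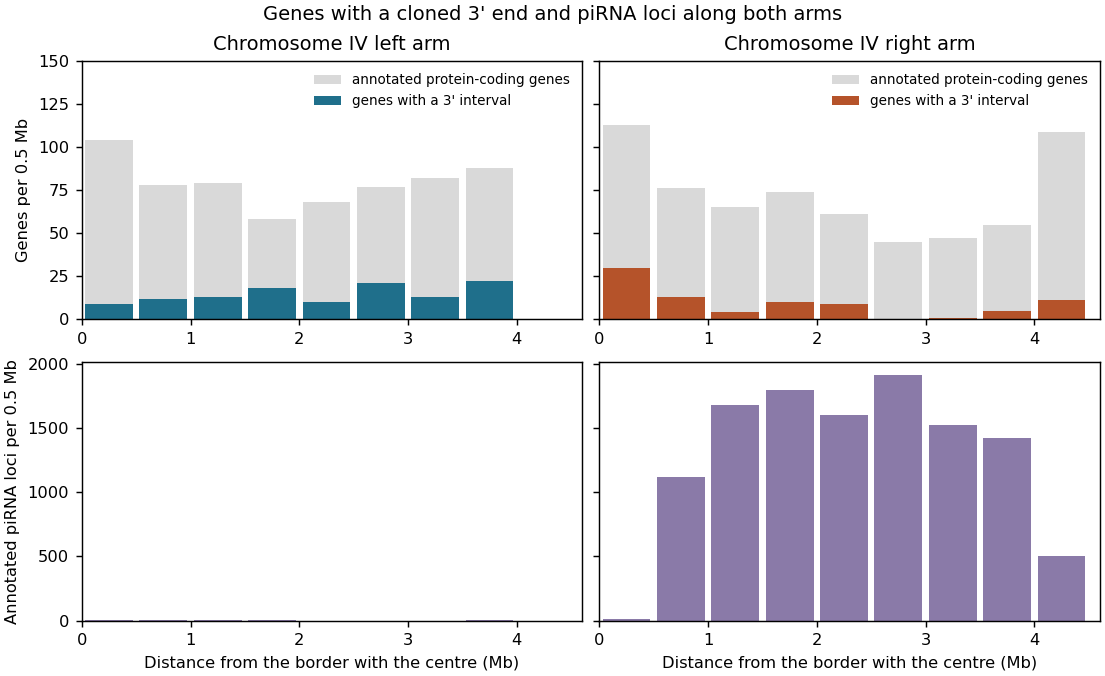
Annotated protein-coding genes (grey), those with a 3′ interval (colour) and annotated piRNA loci (lower panels) per 0.5 Mb against distance from the border with the centre (Mb), for the left and right arm. On the right, 30 of 113 genes in the first 0.5 Mb had an interval, while most of the 11574 piRNA loci lie farther out, and the left arm has 20 such loci.

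Protein-coding 3′ ends were also cloned from among the piRNA loci. Of the 104 intervals of the right arm, 4 overlapped piRNA loci on either strand (3.85%, 1.06 to 9.56), as did 0 of 162 in the left arm, with its 20 loci, and 3 of 522 in the centre (0.575%, 0.119 to 1.67). Those of the right arm belonged to fbxa-98, prdh-1, fbxa-83 and Y73F8A.20. The interval of fbxa-83, an F-box gene, covered 3 such loci, 1 of them on the strand of the gene (IV, 14323196 to 14323393). No interval of either arm overlapped an annotated microRNA, snoRNA or tRNA gene.

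The share of genes with an interval also varied along the left arm. It lay between 8.65% (4.03 to 15.8), 9 of 104 genes, in the 0.5 Mb next to the centre and 31.0% (19.5 to 44.5), 18 of 58, between 2 and 2.5 Mb. From 3 to 3.5 Mb it was 15.4% (8.21 to 25.3), 12 of 78. In the centre it was 16.2%, 18 of 111 genes, from 4 to 4.5 Mb and 9.91%, 11 of 111 genes, from 4.5 to 5 Mb.

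Cloned 3′ UTRs of both arms had a lower median length than those of the centre. Taking the longest interval of each gene that began near its stop codon, the median length after the stop codon was 128 nt (114 to 153) over 102 genes of the left arm. Over 66 genes of the right arm it was 126.5 nt (115 to 140), and over 323 genes of the centre 160 nt (146 to 182). Quartiles were 95.25 and 193.75 nt on the left, 106 and 173.75 nt on the right, and 104 and 247.5 nt in the centre. The interval of the right-arm median lay below that of the centre, and that of the left arm overlapped it. Lower quartiles were close to each other and the upper ones apart. Whole intervals had medians of 171.5 nt (153 to 185) on the left, 161 nt (149 to 177) on the right and 195 nt (183 to 204) in the centre. The shortest interval of the whole list had 96 nt.

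**Figure D3:**
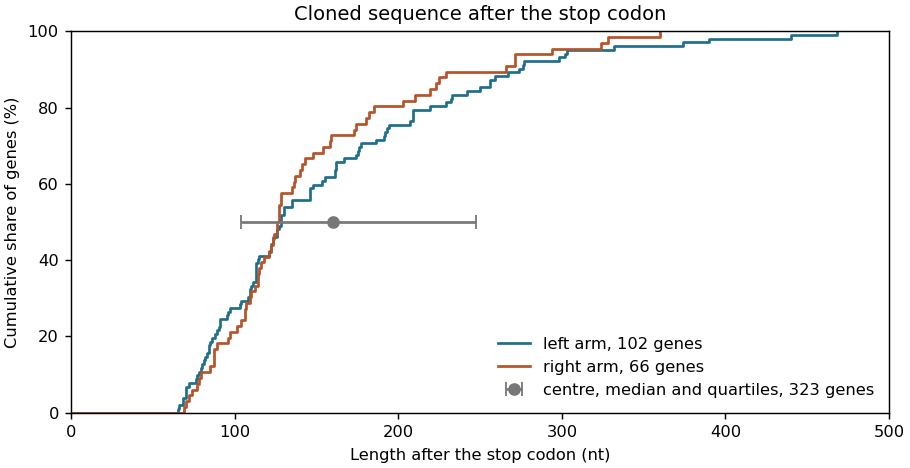
Cumulative share of genes (%) against length after the stop codon (nt) for the left arm (102 genes) and right arm (66 genes), with the median and quartiles of the centre (323 genes) as a point with bars. The curves of the arms lie close at their medians of 128 and 126.5 nt, below the 160 nt of the centre. Their lower quartiles are 95.25 nt on the left and 106 nt on the right.

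The annotation showed the same order of medians for genes with an interval. Their longest annotated 3′ UTR had a median of 160 nt (135 to 207) in the left arm, 126 nt (117 to 159) in the right arm and 182 nt (160 to 203) in the centre. For genes without an interval the medians were 117.5 nt (101 to 138), 101 nt (89 to 119) and 109 nt (103 to 116). The median was thus higher for genes with an interval in each region, with overlapping intervals in both arms. The list holds no interval under 96 nt. For genes without an interval the lower quartiles were 61.75 nt on the left, 51 nt on the right and 59 nt in the centre. The part of this length limit in the higher medians was not tested. Nearly all genes with an interval had a model, since only 2 of 106 left-arm genes without an annotated 3′ UTR and 1 of 146 on the right had an interval. This follows in part from the way genes were named. A gene without an annotated 3′ UTR could be given an interval only by a near stop codon, not by overlap with a 3′ UTR. It is not known here whether the annotation drew on these clones.

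Among intervals that began near the stop codon, the longest cloned 3′ UTR of the left arm was that of tpa-1, a protein kinase C gene and the first named gene of the chromosome (IV, 110118 to 110618), with 468 nt after the stop codon. dcap-1, a subunit of the enzyme that removes the messenger RNA cap, followed with 440 nt (IV, 1052529 to 1052998). The plasma membrane calcium pump gene mca-3 had 390 nt (IV, 3111657 to 3112076), Y77E11A.23 had 374 nt and fln-1, a filamin gene that crosslinks actin, had 332 nt. The shortest were those of hpo-6 (65 nt, IV, 1563954 to 1564069), F56B3.11 (66 nt), Y37E11B.6 and Y41D4B.17 (68 nt each) and B0212.3 (70 nt). Such intervals thus ranged from 65 to 468 nt in the left arm. Some that began farther upstream had less after the stop codon, such as col-104 with 54 nt. The last named interval before the centre belonged to the F-box gene fbxc-47 (IV, 3806527 to 3806711).

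In the right arm the intervals that began near the stop codon ranged from 69 to 360 nt. Some that began farther upstream had less, down to 22 nt in Y37A1A.2 (IV, 13906058 to 13906158). The longest was that of lst-4, a sorting nexin gene that acts in membrane traffic (360 nt, IV, 14060973 to 14061389). Next were gtf-2E1, a subunit of the general transcription factor TFIIE (328 nt, IV, 17257140 to 17257522), and rom-4, a rhomboid family gene (324 nt, IV, 17014514 to 17014867). Y57G11C.33 had 294 nt and Y37A1A.4 had 271 nt, tied with F52B11.2. The shortest were those of Y116A8C.9 (69 nt, IV, 16940332 to 16940442), Y38H8A.4 (70 nt), rfc-3, a subunit of the clamp loader of DNA replication (72 nt), Y116A8C.10 (74 nt) and Y67H2A.2 (77 nt). The first named gene past the border was mbk-2, a kinase gene of the transition from oocyte to embryo, and the last was elo-2, a fatty acid elongase gene (IV, 17466019 to 17466246).

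The 3′ edges were set against annotated transcript ends of the same genes. On the left 67 of 103 edges (65.0%, 55.0 to 74.2) lay within 20 nt of one, 22 (21.4%, 13.9 to 30.5) lay farther upstream and 14 (13.6%, 7.63 to 21.8) farther downstream. On the right 46 of 67 (68.7%, 56.2 to 79.4) lay within 20 nt, 12 (17.9%, 9.61 to 29.2) upstream and 9 (13.4%, 6.33 to 24.0) downstream. In the centre 65.3% (59.9 to 70.5) lay within 20 nt. The intervals of these shares overlapped among the arms and the centre.

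**Figure D4:**
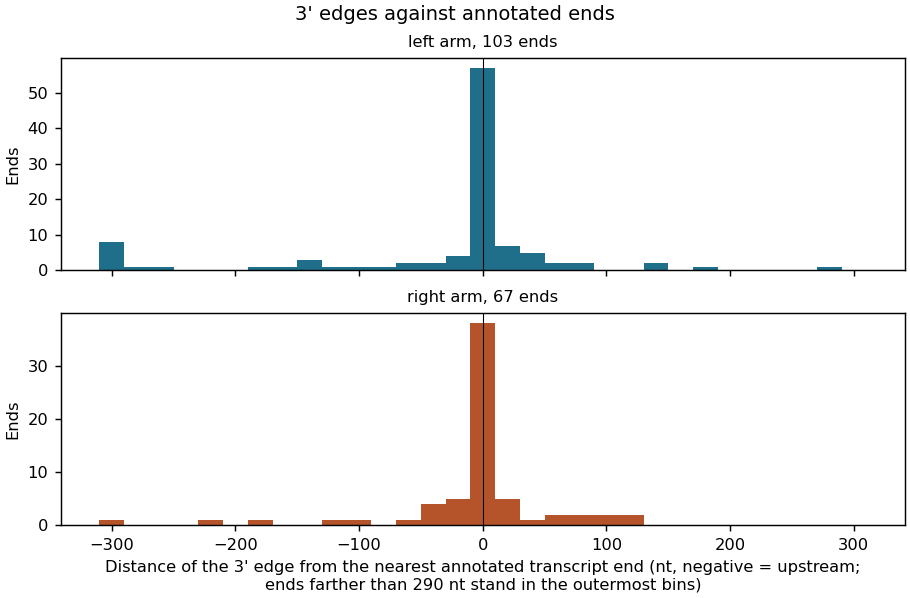
Number of ends by distance (nt, in 20 nt bins) of the 3′ edge from the nearest annotated transcript end of its gene, for 103 ends of the left and 67 of the right arm. Negative distances are upstream, and ends beyond the axis stand in the outermost bins. Most ends lie in the bins around 0, with a longer tail upstream in the left arm, down to −1536 nt.

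Some ends lay far upstream of the annotated ones, here given as negative distances. The farthest on the left was that of sma-10, a transmembrane protein gene of body size signalling, which ended at −1536 nt with 130 nt after the nearest stop codon (IV, 278252 to 278401). All 150 nt of that interval are coding in an annotated model, so the 130 nt are not 3′ UTR in every model. xpc-1, a DNA damage recognition gene, ended at −1055 nt with 80 nt of 3′ UTR (IV, 2007856 to 2007969). The phosphatase gene ptpn-22 had an end at −978 nt with 91 nt. lin-1, an ETS transcription factor gene of vulval development, ended at −264 nt with 146 nt (IV, 2276125 to 2276305), and kgb-1, a stress kinase gene of the JNK family, at −134 nt with 192 nt. lin-1 was chosen after its value was seen.

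On the right the farthest upstream ends were those of Y38H8A.7 (−593 nt, with 87 nt after the stop codon), Y51H4A.25 (−228 nt, with 143 nt) and rde-11, an RNA interference gene (−178 nt, with 141 nt; IV, 13106551 to 13106715). Whether these positions are A-rich in the genome was not tested, since no genome sequence was used here.

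Other ends lay downstream of the annotated ones. On the left 6 of the 14 such ends, and in the right arm 4 of the 9, had as the nearest model one that stops at the stop codon. The farthest on the left were those of clec-173, a C-type lectin gene (276 nt downstream; IV, 3266124 to 3266433), eel-1, a HECT-type ubiquitin ligase gene (174 nt), and Y94H6A.10 (146 nt; IV, 2709972 to 2710157). For clec-173 and Y94H6A.10 the annotation has no 3′ UTR at all. The farthest on the right were those of sec-61.A, the channel subunit of the protein translocon of the endoplasmic reticulum (126 nt; IV, 14822677 to 14822836), F52B11.2 (117 nt) and kdp-1 (97 nt; IV, 13300572 to 13300688). Of these, kdp-1 has no annotated 3′ UTR and F52B11.2 has one. For sec-61.A the nearest model stops at the stop codon, while another model of the gene has a 3′ UTR.

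More than 1 end was found for few genes. On the left 4 of 118 genes had 2 ends (3.39%, 0.931 to 8.45), and in the right arm 1 of 83 (1.20%, 0.0305 to 6.53). The intervals of the list do not overlap, so forms that share a stop codon and differ only in length cannot be counted in it. The 2 ends of eel-1 lay 229 nt apart, with 90 nt between the intervals (IV, 3032786 to 3032924 and 3033015 to 3033240), of which only the second began near the stop codon, eel-1 being on the minus strand. In tftc-1, a transcription factor IIIC gene by name, and in ntl-11, a CCR4-NOT complex gene by name, each of the 2 intervals began near a stop codon of its own. The ends of tftc-1 lay 5949 nt apart, with 136 and 146 nt after the stop codons. Those of ntl-11 lay 2774 nt apart, with 266 nt (IV, 15455194 to 15455482) and 90 nt (IV, 15457968 to 15458092). Of the 289 nt of the first of these, 221 are annotated coding sequence, so most of its 266 nt is coding in some model. The ends of ptpn-22 lay 2808 nt and those of zipt-15, a zinc transporter gene, 1149 nt apart, and in each the farther interval began past the stop codon. When genes were given by a near stop codon alone, 1 of 102 genes of the left arm (0.980%) and 1 of 66 of the right arm (1.52%) had 2 ends.

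Gene families of the arms had intervals to different degrees. Over both arms 201 of 1279 genes had a 3′ interval (15.7%, 13.8 to 17.8). The 21 lists below were defined by the stems of gene symbols and are partial, as other genes of the same processes lie in the arms under other symbols. A count refers to the listed symbols only, and 10 symbols of the arms were shared by more than 1 annotated gene, none of them with an interval. Only 3′ intervals were counted. Listed genes with intervals over coding exons alone, such as ric-8, nhr-274 and sfa-1, thus count as without one.

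None of the 68 chemoreceptor genes of the arms, receptors of sensory neurons, had a 3′ interval, 24 on the left and 44 on the right, which allows a share of up to 5.28%. In the centre 4 of 109 had one (3.67%, 1.01 to 9.13). Nuclear receptor genes, a family of transcription factors, had 0 of 12 (up to 26.5%). C-type lectin genes, many of them linked to immunity, had 3 of 37 (8.11%, 1.70 to 21.9), all in the left arm. Beside clec-173 these were clec-82, with 76 nt after the stop codon (IV, 2838484 to 2838588), and clec-80, with 55 nt (IV, 2827874 to 2828068). F-box and related genes, whose products pick proteins for destruction, had 3 of 16 (18.75%, 4.05 to 45.6). They were fbxc-47 with 148 nt, fbxa-98 with 87 nt and fbxa-83 with 154 nt, and their ends lay 3 to 6 nt from annotated ones.

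Of the ribosomal protein genes, all 5 in the right arm had a 3′ interval (lower limit 47.8%), and 0 of 3 in the left arm (up to 70.8%). In the centre 6 of 10 had one (60.0%, 26.2 to 87.8). Each of the 5 began more than 60 nt before the stop codon. In genomic distance, any intron included, the 5′ edge lay 142 nt before the stop codon's end in rla-2 (IV, 13369469 to 13369646). It was 152 nt in rpl-29 (IV, 13882398 to 13882587) and 176 nt in rps-18 (IV, 14826152 to 14826359). In rpl-12 it was 257 nt (IV, 13239607 to 13239902), with 203 nt of the interval coding. In rpl-18 it was 314 nt (IV, 13778400 to 13778777), with 263 nt coding. After the stop codon 31 nt followed in rps-18, 35 nt in rla-2, 37 nt in rpl-29, 38 nt in rpl-12 and 63 nt in rpl-18. Right-arm intervals that began near the stop codon had at least 69 nt after it. That minimum follows in part from the definition, as such intervals began at most 60 nt before the stop codon's end. The shortest interval of the list had 96 nt. Right-arm intervals that began farther upstream, these 5 included, had 22 nt (Y37A1A.2) to 163 nt (Y116A8C.30) after the stop codon. rla-2 and rps-18 ended at −78 and −82 nt from the nearest annotated end. rpl-12 and rps-18 each also held an interval wholly within coding sequence.

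Of the listed mitochondrial ribosome and respiratory chain genes 4 of 9 had one (44.4%, 13.7 to 78.8), with 106 to 124 nt after the stop codon. nduv-3, a complex I subunit gene outside the list and the naming rule given below, had 91 nt (IV, 2641978 to 2642107). mrpl-2, a mitochondrial ribosomal protein gene, had 109 nt after the stop codon, cox-18, an assembly factor of cytochrome oxidase by name, had 108 nt, nuo-3, a complex I subunit gene, had 106 nt and cox-6C, a cytochrome oxidase subunit gene, had 124 nt. Each ended at most 7 nt from an annotated end.

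Of the genes that make and handle messages, cpsf-1, a subunit of the cleavage and polyadenylation factor, had 113 nt (left arm). uaf-2, the small subunit of the splicing factor that reads the 3′ splice site, had 110 nt (right arm; IV, 17116734 to 17116869), so the listed splicing and RNA processing genes had 2 of 5 (40%, 5.27 to 85.3). qars-1, the glutaminyl-tRNA synthetase gene, had 135 nt, and with eef-1B.2 it made 2 of 3 listed translation genes (66.7%, 9.43 to 99.2). Of the 4 listed germline and small RNA genes of the right arm, 2 had an interval, puf-3, an RNA-binding protein gene of the Pumilio family (210 nt; IV, 13510274 to 13510512), and rde-11. mex-5 and tra-3 had none. rsd-2, an RNA interference gene outside the list and the naming rule, had 124 nt (IV, 13521937 to 13522092).

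Listed membrane traffic genes had 3 of 6 (50%, 11.8 to 88.2). sec-61.B, a further translocon subunit gene, had 82 nt and ended at −103 nt in the left arm (IV, 2388285 to 2388391), and rab-19, a small GTPase gene, had 89 nt in the right arm. The subunits sec-61.A and sec-61.B thus lie on opposite arms. The nearest model of sec-61.A stops at its stop codon, so its cloned end was not set against the end of an annotated 3′ UTR. Single members came from the cilium list (osm-3, a kinesin motor gene, 88 nt, 1 of 4), the signalling list (kgb-1, 1 of 4), the ion channel list (kvs-5, a potassium channel gene, 259 nt, 1 of 9) and the detoxification list (ugt-45, a glucuronosyltransferase gene, 85 nt, 1 of 5). Cuticle collagen genes had 2 of 18 (11.1%, 1.38 to 34.7), col-101 with 83 nt and col-104 with 54 nt after the stop codon.

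No 3′ interval was given to the listed acetylcholine and synapse genes of the arms, 0 of 8 (up to 36.9%). Among them were unc-17 and cha-1, which load and make acetylcholine, and ric-8, which held intervals over coding exons. The listed proteasome and ubiquitin genes, which do not include eel-1, also had no 3′ interval, 0 of 9 (up to 33.6%). Nor did the listed neuropeptide and insulin genes, 0 of 6 (up to 45.9%), the homeobox genes, 0 of 3 (up to 70.8%), or the single listed sperm gene (0 of 1). No listed histone gene lies in the arms.

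**Figure D5:**
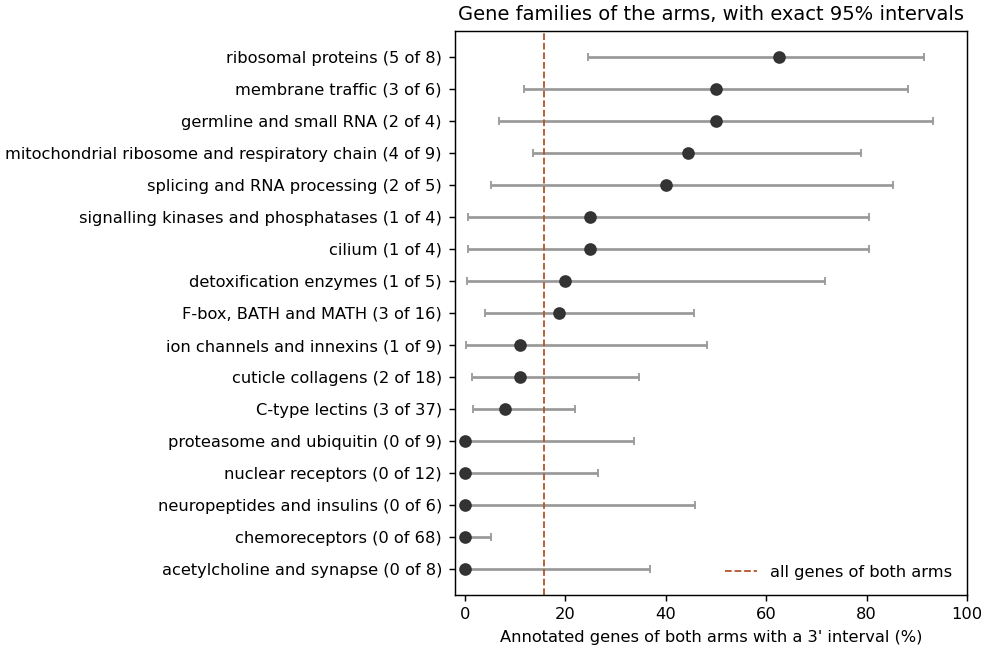
Share (%) of the annotated genes of both arms with a 3′ interval, for symbol lists with at least 4 members there, with exact 95% intervals as bars and the share over all genes of both arms (15.7%) as a dashed line. Chemoreceptor genes (0 of 68) have their whole interval below the line and ribosomal protein genes (5 of 8) theirs above it. Shares mix the choice of forward primers with recovery.

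Other named genes give a view of what the arms hold, and were chosen after their values were seen. On the right the fatty acid desaturase genes fat-1 and fat-2 had 174 nt (IV, 13318547 to 13318746) and 116 nt (IV, 13326175 to 13326360) after the stop codon. Germline genes there included msh-5, which acts in meiotic crossing over, with 115 nt, fcd-2, a DNA crosslink repair gene, with 106 nt, and memi-2, a gene of the change from meiosis to mitosis in the egg, with 225 nt. pkd-2, a polycystin channel gene of male sensory neurons, had 128 nt and ended 0 nt from the annotated end (IV, 15227773 to 15227935). On the left the ephrin gene efn-4 had 298 nt (IV, 567804 to 568143) and gex-2, an actin regulator gene of the WAVE complex, 209 nt. hrpa-1, an hnRNP A gene, had 302 nt (IV, 3336927 to 3337266), and the eggshell genes perm-2 and perm-4 had 104 and 87 nt.

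Intervals over coding exons that were given to no 3′ end made up 26 of 162 in the left arm (16.0%, 10.8 to 22.6) and 13 of 104 in the right arm (12.5%, 6.83 to 20.4), against 17.2% (14.1 to 20.8) in the centre. They lay in 22 and 12 genes. Of the 26, 11 and of the 13, 10 were coding along their whole length. The median genomic distance to the next stop codon, introns included, was 2299 nt (802 to 3986) over 25 intervals on the left and 1426 nt (182 to 2987) over 13 on the right. In the centre it was 979 nt (643 to 1243). Of these intervals, 8 in the left and 6 in the right arm lay in a gene that also had an interval at its 3′ end.

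The genes with most of them held 2 each. On the left these were col-107, a collagen gene (IV, 1548731 to 1548872 and 1548929 to 1549131), fnip-2, and ric-8, a regulator of G protein signalling (IV, 2645404 to 2645516 and 2648642 to 2648809). tftc-1 also held 2 and came after them by name. On the right pwp-1 held 2 (IV, 13234954 to 13235082 and 13236109 to 13236264), besides an interval at its 3′ end with 127 nt after the stop codon. Genes with 1 there included Y38H8A.2, Y41E3.1, sfa-1, a splicing factor gene (2554 nt before the stop codon), and itsn-1, an intersectin gene of endocytosis (5663 nt before it).

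Neighbouring genes that end towards each other can share an interval. On the left 10 of 162 intervals (6.17%, 3.00 to 11.1) covered 3′ ends on both strands and 9 of them could be given to 1 gene by its stop codon. On the right it was 7 of 104 (6.73%, 2.75 to 13.4), 6 of them given to 1 gene. In the centre 56 of 522 did (10.7%, 8.21 to 13.7). The longest were those of fln-1 (366 nt, IV, 359251 to 359616), of ears-2 with ssna-1 (323 nt, given to neither) and of aass-1, a lysine breakdown gene (IV, 251692 to 251926), in the left arm. On the right they were those of gtf-2E1 (383 nt), gly-10, a glycosyltransferase gene (206 nt, IV, 13782161 to 13782366), and C30H6.9 (184 nt, IV, 17379204 to 17379387). As the list gives no strand, the far edge of such an interval may belong to the product of the other gene.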

How the data were processed

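The deposited list has 6 columns and no header. Start and end are positions in nt, and the authors' score column (deposited as 0 in each row) and the strand column (a plus sign throughout) were not used. The labels do not name the contig assembly, aligner, filters or genome build. A gene was given to an interval that, after the move by its 1 Mb window's offset, covered at least 10 nt of the gene's stop codon and 3′ UTR or began within 60 nt upstream of the last base of the stop codon. With several candidate genes, the only one with a near stop codon was taken, or none. Offsets used at least 3 intervals per strand within 120 nt of a stop codon. Ends at most 20 nt apart were joined, and coding means at least 10 nt of coding exon. Lengths are genomic. A gene belongs to the arm of its annotated 3′ end.

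Members, gene lists and naming rule were chosen with earlier results of these data known. The rule names, per arm, the 5 longest and 5 shortest after the stop codon, genes with several ends, the 3 ends farthest upstream and downstream, the 3 longest intervals over both strands, the 3 genes with most coding intervals, the first and last named interval, and list members with an interval. On simulated intervals of the arms, 336 in number, 99.1% received the right gene, 0 a wrong one, and the offset erred by at most 6 nt. Each was placed at most 60 nt before an annotated stop codon of an evenly drawn gene, with an offset that grew evenly along the chromosome. It therefore cannot show the error for intervals that begin elsewhere, or for offsets that rest on few intervals. Python 3.11.15, pandas 2.3.3 and scipy 1.17.1 were used.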

Additional observations from a re-analysis of the deposited data

How the results depend on the processing

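Alternatives were other windows (0.5 and 2 Mb), no offset, an overlap of 1 or 50 nt, a stop codon at most 30 or 100 nt from the edge, ends within 10 or 50 nt, and arms bounded at 3 and 14 Mb. 3 more were chosen after seeing the data. Of the recomputed values, 105 stayed within the 95% interval of the value reported. The other 5 did not. With no offset, the share of named right-arm intervals that start near the stop codon was 29.3% and that of right-arm ends within 20 nt of an annotated end was 9.09%. With an overlap of 50 nt the first of these was 88.2%. With a limit of 30 nt, below the usual distance of the 5′ edge, it was 42.7% on the right and 43.6% on the left.

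With windows of 0.5 and 2 Mb, 206 of 206 named intervals kept their gene, and lengths after the stop codon moved by at most 5 and 4 nt. With no offset, 196 kept it, 1 got another gene and 9 got none. Median lengths after the stop codon ranged over the alternatives from 127.5 to 129 nt on the left and from 123 to 131 nt on the right. The share of genes with more than 1 end in the right arm was 2.50% with arms bounded at 3 and 14 Mb, where fewer genes were counted, and other values are given beside the result. The planned search for AATAAA before annotated ends was not run, as no genome sequence was used. No paired analysis was possible because the list is not divided into libraries or replicates. Depth is unknown, and precision is limited by the number of intervals.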

Other observations

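A few intervals of the arms lay outside 3′ ends and coding exons, 13 in the left and 6 in the right arm. Of the 13, 7 overlapped annotated pseudogenes and the other 6 lay within protein-coding genes with under 10 nt of coding exon, for example in efn-4 (IV, 562329 to 562474), clp-7, a calpain protease gene by name (IV, 1440197 to 1440367), and epg-9, an autophagy gene (IV, 2601798 to 2601911). Of the 6 on the right, 2 overlapped pseudogenes, 3 lay within protein-coding genes, among them egl-23, a potassium channel gene (IV, 13997797 to 13997901), and 1 overlapped no annotated gene (IV, 15512476 to 15512591, 1452 nt past the end of acr-24). That interval is the only one between 15.5 and 16 Mb, a bin with 1915 annotated piRNA loci.

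Neighbouring intervals under 1000 nt apart were 10 pairs in the left and 6 in the right arm. Of these, 4 and 2 pairs belonged to genes that end towards each other. The closest of these were atgp-1 and gln-5, a glutamine synthetase gene by name, with 72 nt between their intervals (IV, 17271991 to 17272139 and 17272212 to 17272346). Y38F2AR.3 and sec-61.B followed with 251 nt and spp-31 with rpc-11, an RNA polymerase III subunit gene by name, with 440 nt. In 1 pair of the left arm, Y37E11B.6 and Y37E11B.7, both genes pointed the same way, with 742 nt between their intervals.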
